A study of Mus musculus with 8 samples.

Results

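The nuclear-encoded respiratory chain genes were followed in hematopoietic stem cells, the self-renewing cells at the root of the blood system, sorted from mouse bone marrow. The 82 members were the rows of a table of 52224 genes whose symbols begin with Nduf followed by a, b, c, s or v, are Sdha to Sdhd, begin with Uqcr, or begin with Cox4 to Cox8 and a letter. Names marked as pseudogenes by the ending -ps were left out. Of the members, 5 are copies of other members, 4 of them annotated as processed pseudogenes. They are counted below with the subunits of complex I or IV. Sorted by complex, the members were 41 complex I subunits, 8 complex I assembly factors, 4 complex II subunits, 8 complex III subunits and 21 complex IV subunits. No measured value was used to choose them, but the choice was made with earlier results of these data known.

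The cells came from DekTg mice (4 libraries) and DekCon mice (4 libraries), and were gated as CD48-CD150+LSK. The labels give DekTg and DekCon as genotypes and say nothing of the allele, the promoter that drives it, the strain, or the age of the mice. They do not say that the 4 libraries of a group came from separate mice, so p-values measure only the spread between these libraries. DEK is a chromatin protein, and the title of the series places the study in work on replication stress and stem cell function in Fanconi anemia.

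The respiratory chain passes electrons from NADH (complex I) or succinate (complex II) through ubiquinone to complex III, from there through cytochrome c to complex IV, and finally to oxygen. Complexes I, III and IV pump protons and drive ATP synthase. A few of their catalytic subunits are encoded in mitochondrial DNA, and all other subunits, with all of complex II, are encoded in the nucleus and imported. Hematopoietic stem cells at rest are known for low reliance on respiration and for raising it when they are activated.

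The libraries held between 2642858 and 3591212 reads in DekTg and between 2525884 and 4101132 in DekCon. Members took 0.505 ± 0.050% of reads in DekTg and 0.548 ± 0.045% in DekCon (SD, n = 4 each). Values are normalized reads, the read count of a gene divided by a size factor for its library, so that 1 read was worth between 0.772 and 1.27, depending on the library. Dek itself had values of 2699.7, 2296.1, 1861.8 and 2710.3 in DekTg, against 476.7, 538.8, 632.3 and 395.2 in DekCon, with no overlap (log2 fold change 2.23, SE 0.16, adjusted p = 1.1e-06, limma). The DekTg values of Dek are not whole numbers of reads, unlike those of every member, and no label says how they were made. The sort markers Kit, Ly6a (Sca-1) and Slamf1 (CD150) were detected in all 8 libraries. So were the stem cell markers Procr, Hlf and Mecom, and Cd48, whose protein the gate excludes. Slamf1 was lower in all 4 DekTg libraries, at 190 to 213 normalized reads, against 228 to 300 in DekCon (log2 fold change -0.40, adjusted p = 0.711, limma). DekCon 2 had the lowest values of its group for Procr (13.4), Hlf (161), Ly6a (110), Mecom (127) and Cd48 (128), but not for Kit or Slamf1. The part of these in the result was not tested.

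Libraries numbered 2 stood apart in both groups. Of 72 members with a mean of at least 10 normalized reads, DekTg 2 was the highest DekTg library for 57, and DekCon 2 was the highest DekCon library for 65. The median member lay 1.29-fold over its group mean in DekTg 2 and 1.22-fold over it in DekCon 2. DekTg 4 was the lowest of its group for 42 members, at 0.857-fold of the mean, and DekCon 1 for 38, at 0.880-fold. Within each group, libraries 1 and 4 differed much less from each other than any other pair did, and the labels do not say why. Log2 fold changes that moved by over 1.5 times without a library 2 are given without it for most of the members described library by library.

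**Figure D1:**
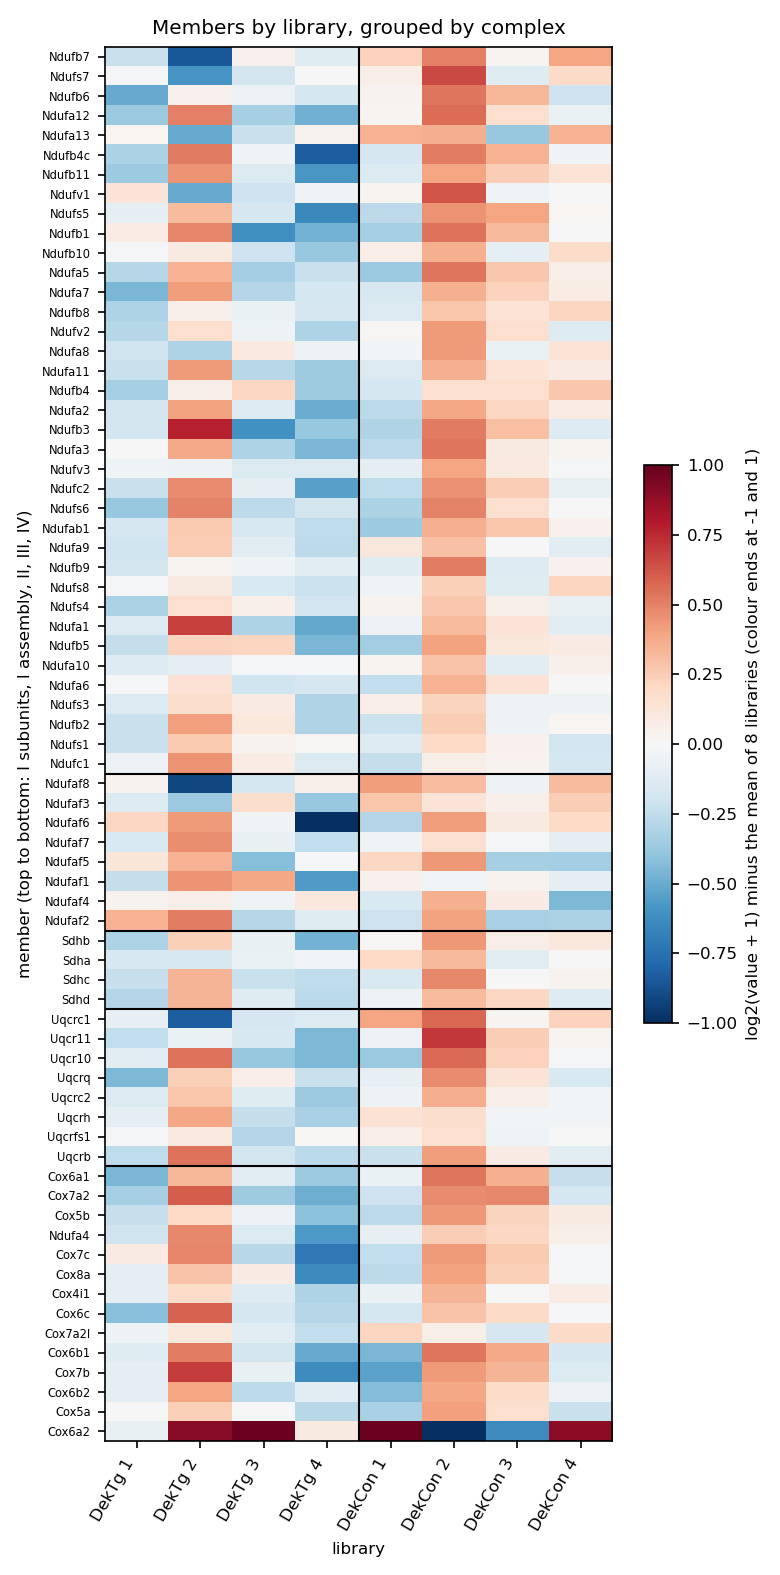
Each row is 1 of the members with a mean of at least 10 normalized reads and each column a library, and colour gives log2(value + 1) minus the mean of the 8 libraries. Rows run by complex, and within a complex from the lowest to the highest log2 fold change. Columns DekTg 2 and DekCon 2 are mostly red, and DekTg 4 is mostly blue.

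Promoter letters are shown for 6 of the members described below that carry a motif of a factor known from mammalian cells to bind respiratory chain promoters. RefSeq promoters of build GRCm38.p6, from 250 bases before to 50 after the start, were matched for 62 members. NRF1 was searched as GCGCA, any base and GCGC in a row, the ETS family (which includes GABPA) as CCGGAAG, and YY1 as AAGATGGC, on both strands, with overlaps between motifs allowed. Windows of 30 bases are printed on the strand of the gene with the match in capitals, and positions count from 1 at the RefSeq start.
Uqcrc1, NRF1-like, bases 31 to 40, chr9:108936668-108936697, plus strand: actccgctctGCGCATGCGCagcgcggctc
Uqcr11, ETS-like, bases -66 to -60, chr10:80406869-80406898, minus strand: ttctctcctccCCGGAAGtagatgtcaatg
Ndufb7, ETS-like, bases -20 to -14, chr8:83566727-83566756, plus strand: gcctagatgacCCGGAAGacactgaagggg
Ndufs7, YY1-like, bases 25 to 32, chr10:80249462-80249491, plus strand: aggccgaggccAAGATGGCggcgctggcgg
Ndufaf8, ETS-like, bases -8 to -2, chr11:120098915-120098944, plus strand: cgcgttcgactCCGGAAGaggcagggccca
Cox6a1, NRF1-like, bases -162 to -153, chr5:115349101-115349130, minus strand: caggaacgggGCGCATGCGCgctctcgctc

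The NRF1-like motif was found in 21.9% of the 64 member promoters, against 10.2% of 10707 promoters of genes with a mean of at least 50 and 4.60% of all 32851 promoters. The ETS-like motif was found in 20.3%, against 17.8% and 8.86%. The YY1-like motif was found in 12.5%, against 4.48% and 2.75%. In all, 30 members held at least 1 of the motifs. Members with and without a motif had nearly the same median log2 fold change, at -0.21 with and -0.19 without the NRF1-like motif, -0.18 and -0.19 for the ETS-like motif, and -0.18 and -0.19 for the YY1-like motif. A match describes letters only and does not show that a factor binds.

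No member differed between DekTg and DekCon after adjustment. Of the 82 members, 78 had a value of at least 1 in at least 4 libraries and were tested, and 0 of these had an adjusted p under 0.05 (limma on log2(value + 1), Benjamini-Hochberg over 37414 genes). The smallest adjusted p was 0.654, for Uqcrc1. Over all genes tested, 0.0347% were called in either direction (13 genes), with 0.00802% lower and 0.0267% higher in DekTg. With the reads themselves, edgeR also called 0 members, against 0.0241% of genes. DESeq2 called 0 of the 29 members to which it gave an adjusted p, against 0.422% of genes. Both count tests left out 6 genes, Dek among them, whose values are not whole reads. Without these genes limma called 8 genes. DESeq2 gave its smallest member value, 0.0913, to Uqcrc1.

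Before adjustment, 6 members (7.69% of those tested) were lower in DekTg at a limma p under 0.05, and 0 were higher. Over all genes tested, 3.78% were lower and 3.15% were higher by that rule. Most members are well expressed, and among the 11808 genes with a mean of at least 50 the background was 8.09% lower and 2% higher, close to the 9.23% lower among the 65 members at that level. This share turned on libraries 2. Without DekTg 2, 41.5% of the 65 members (27 members) were lower at an unadjusted p under 0.05, against 11.3% of genes at that level, while without DekCon 2 the shares were 4.62% (3 members) and 4.26%. Without library 2 of both groups they were 18.5% (12 members) and 9.38%, and in each of these fits 0 members passed after adjustment. All 4 DekTg libraries lay below all 4 DekCon libraries for 2 members (2.56%), against 1.88% of all genes tested and 3.69% of genes with a mean of at least 50. All 4 lay above for 0 members, against 2.09% and 1.53%.

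The direction was more uneven than these counts. The log2 fold change, DekTg over DekCon, was negative for 67 of 78 members (85.9%), with a median of -0.19. Without library 2 of both groups it was negative for 87.2%, with a median of -0.20. With all libraries it was negative for 49.4% of all genes tested, whose median was 0.01, and for 64.6% of genes with a mean of at least 50, whose median was -0.08. Members share their libraries, so their common sign counts the same 8 libraries many times, and no p is given for it. The member median was -0.29 without DekTg 2 and -0.09 without DekCon 2, so these libraries move it by over 1.5 times in opposite directions. It was also closer to 0 under other scalings, at -0.10 both with quantile normalization and with scaling to the total, where the median of genes with a mean of at least 50 was 0.0022 and 0.0096. In bulk RNA, fewer cells of a type and less RNA per cell cannot be told apart.

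**Figure D2:**
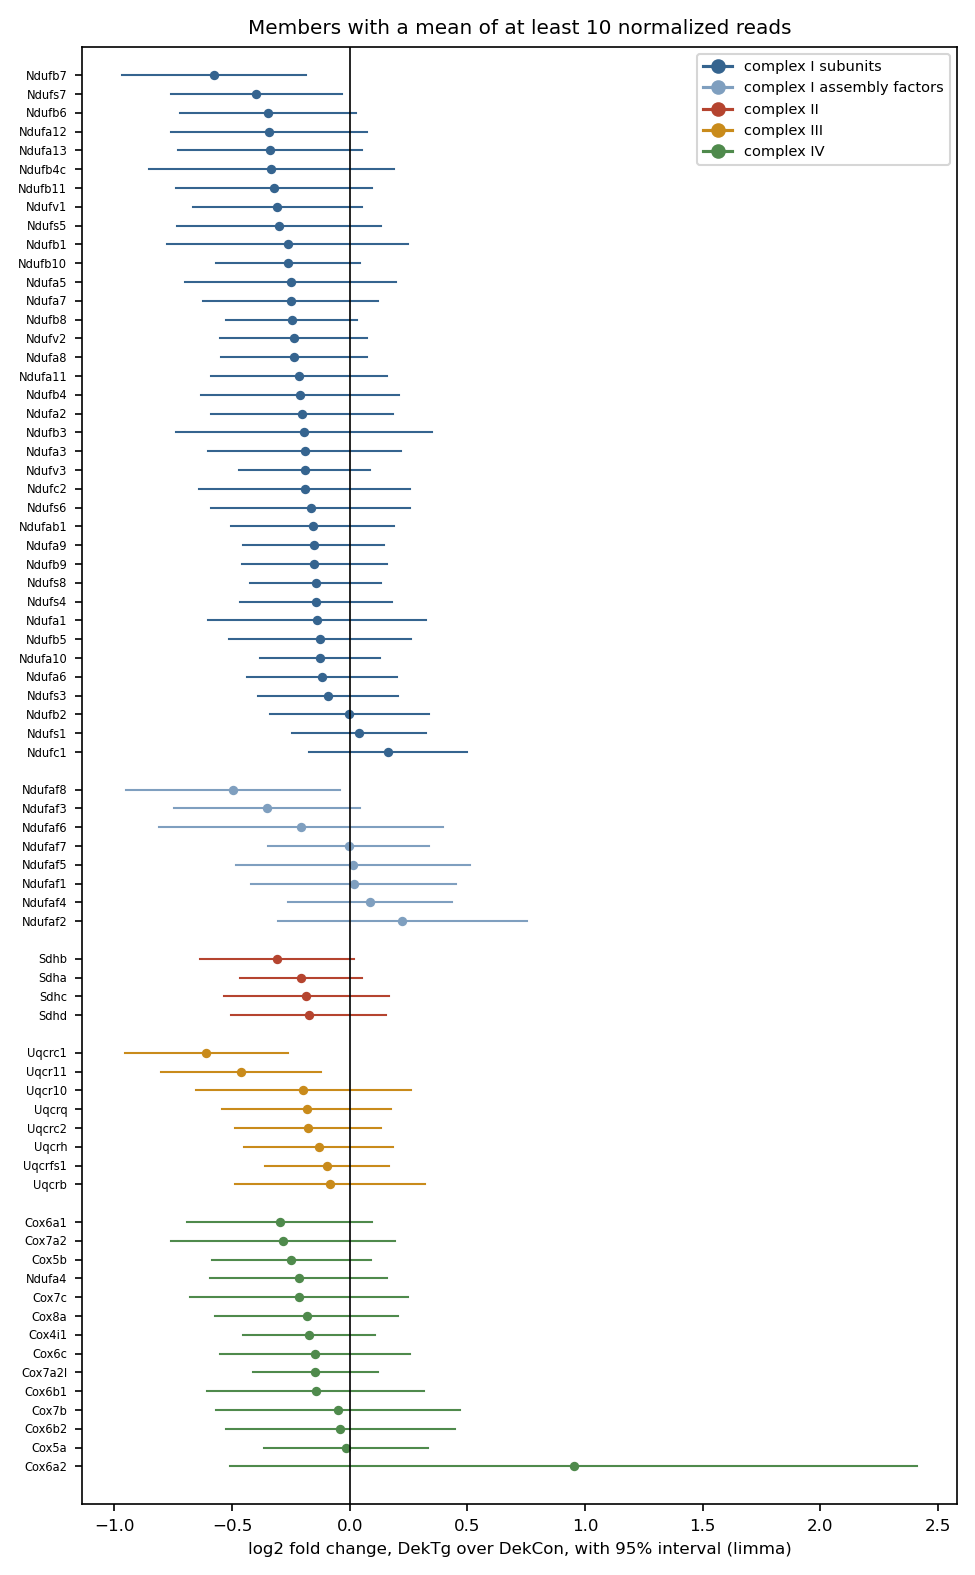
Points are log2 fold changes, DekTg over DekCon, and lines are their 95% intervals from limma, for members with a mean of at least 10 normalized reads, coloured by complex. Nearly all points lie left of 0, and most intervals cross it. Cox6a2 lies farthest from it, on the right at 0.95, with the widest interval (-0.51 to 2.41). On the left, Uqcrc1, Ndufb7 and Ndufaf8 lie farthest.

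Complex I core subunits carry the flavin and iron-sulfur centres that take electrons from NADH to ubiquinone. Of the 7 in the nucleus, 6 had negative log2 fold changes (median -0.24) and 2 had an unadjusted p under 0.05. Ndufs7, which holds the last iron-sulfur cluster before ubiquinone (chr10:80249121-80256794 in GENCODE M21 on GRCm38, plus strand), had 283.5, 189.8, 252.3 and 285.6 normalized reads in DekTg, against 299.2, 452.6, 262.9 and 328.0 in DekCon. The groups overlapped, with DekTg 2 the lowest and DekCon 2 the highest of the 8. On the log2 scale the difference was -0.40 (SE 0.17, 95% interval -0.76 to -0.03, adjusted p = 0.711, limma). It was -0.27 without DekTg 2, -0.24 without DekCon 2 and -0.11 without both.

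Ndufv1, the subunit that binds NADH and the flavin, had 240.7, 155.0, 191.2 and 215.2 normalized reads in DekTg, against 224.4, 340.7, 213.9 and 221.5 in DekCon. Apart from DekCon 2, all DekCon values lay inside the DekTg range. The log2 fold change of -0.31 (adjusted p = 0.749, limma) became -0.19 without DekTg 2, -0.15 without DekCon 2 and -0.03 without both. Ndufs1, the largest core subunit, was the core member with a positive value, at 401 ± 55 normalized reads in DekTg and 389 ± 48 in DekCon (SD, n = 4 each). Its exons overlap Eef1b2 and Ino80dos on the other strand. Ndufv2, Ndufs3 and Ndufs8 lay between -0.24 and -0.09 on the log2 scale, none with an unadjusted p under 0.05.

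Complex I accessory subunits surround the core and are needed for its assembly and stability. Of 30, 29 had a negative log2 fold change, with a median of -0.20. Ndufb7, a subunit of the membrane arm on the intermembrane side (chr8:83566671-83571626, plus strand), had the largest size among them. Its values were 100.6, 64.9, 121.3 and 108.1 normalized reads in DekTg, against 138.2, 167.5, 119.7 and 155.1 in DekCon. The groups overlapped only through DekTg 3 and DekCon 3. The log2 fold change was -0.58 (SE 0.19, 95% interval -0.97 to -0.18, adjusted p = 0.711, limma), -0.39 without DekTg 2 and -0.32 without library 2 of both groups.

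Ndufb6, another membrane arm subunit, had 82.4, 121.3, 112.6 and 103.9 normalized reads in DekTg, against 120.4, 170.3, 147.9 and 101.9 in DekCon. The groups overlapped, and the log2 fold change was -0.35 (adjusted p = 0.727, limma), and -0.23 without DekCon 2. Its exons overlap Smim27 on the other strand, and without a stated strand setting the reads of both cannot be told apart, here or for the other overlaps named. Ndufa10, the accessory subunit with the most reads, differed less, with 405 ± 16 normalized reads in DekTg and 444 ± 51 in DekCon (SD, n = 4 each). The fitted value was -0.13 (95% interval -0.38 to 0.13) and turned to 0.0031 with quantile normalization. Ndufc1 was the accessory subunit with a positive log2 fold change (0.16, adjusted p = 0.853, limma).

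The 4 copies of complex I genes mostly had few reads. Ndufb4c averaged 60.4 ± 24.0 normalized reads in DekTg and 73.4 ± 16.3 in DekCon, and reads of its source gene Ndufb4 could be split between them. Ndufa11b had 1.94 normalized reads in DekTg 3 and 0 in the other DekTg libraries, against 1.27, 0.957, 2.83 and 3.09 in DekCon. Ndufs6b had 4.12, 2.40, 2.91 and 2.1 in DekTg, against 0, 0, 2.83 and 1.54 in DekCon. These values are a few reads each, and Ndufa11b passed the filter with exactly 4 libraries. Ndufb11b had 0.824 in DekTg 1 and 0 elsewhere and was not tested.

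Assembly factors named Ndufaf build complex I and are not part of the finished enzyme. They were split, with 4 of 8 negative and a median log2 fold change of 0.0049. Ndufaf8, which acts on the core subunit NDUFS7 through NDUFAF5 in human cells, had 61.0, 31.2, 52.4 and 61.9 normalized reads in DekTg, against 79.9, 73.7, 57.5 and 74.1 in DekCon. The groups overlapped through DekCon 3, and DekTg 2 was the lowest. Its log2 fold change was -0.50 (SE 0.22, adjusted p = 0.711, limma), -0.28 without DekTg 2 and -0.26 without library 2 of both groups.

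Ndufaf3 averaged 43.0 ± 8.2 normalized reads in DekTg and 54.5 ± 3.9 in DekCon (log2 fold change -0.35, adjusted p = 0.743, limma), and its exons overlap Impdh2 on the other strand. Ndufaf2 averaged 34.4 ± 9.1 in DekTg and 29.2 ± 8.0 in DekCon (log2 fold change 0.22, adjusted p = 0.866, limma). Ndufaf7, a methyltransferase, had the highest mean of the 8, at 132 ± 32 in DekTg and 130 ± 10 in DekCon (SD, n = 4 each for all of these). Its log2 fold change of -0.0043 (95% interval -0.35 to 0.34) was the closest to 0 of the 8.

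Complex II oxidizes succinate and is shared with the tricarboxylic acid cycle. Its 4 subunits all had negative log2 fold changes (median -0.20), and none had an unadjusted p under 0.05. Sdha, the flavoprotein, had 851.4, 850.4, 906.4 and 935.5 normalized reads in DekTg, against 1092.8, 1192.3, 882.0 and 953.2 in DekCon. All but DekCon 3 lay above the DekTg libraries (log2 fold change -0.21, 95% interval -0.47 to 0.05, adjusted p = 0.760, limma).

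Sdhb, the iron-sulfur subunit, had 266.2, 390.4, 314.4 and 238.3 normalized reads in DekTg, against 333.4, 447.8, 346.8 and 355.0 in DekCon. DekTg 2 lay among the DekCon libraries and the other 3 below them. The fitted log2 fold change was -0.31 (95% interval -0.64 to 0.02, adjusted p = 0.727, limma). Sdhc, a membrane anchor, averaged 216 ± 48 in DekTg and 244 ± 49 in DekCon (log2 fold change -0.18, adjusted p = 0.840, limma). Its value was -0.33 without DekTg 2, -0.06 without DekCon 2 and -0.20 without both. Sdhd, the other anchor, averaged 272 ± 60 in DekTg and 304 ± 44 in DekCon (SD, n = 4 each; log2 fold change -0.17, adjusted p = 0.840, limma), with -0.32 without DekTg 2, -0.10 without DekCon 2 and -0.24 without both. Sdha was -0.14 without DekCon 2 and -0.12 without both.

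Complex III passes electrons from ubiquinol to cytochrome c. All 8 members had negative log2 fold changes (median -0.18), and both members whose groups did not overlap were among them. Uqcrc1, a core protein of the matrix side (chr9:108936633-108949623, plus strand), had 820.9, 490.1, 772.5 and 792.7 normalized reads in DekTg, against 1142.2, 1293.8, 884.8 and 1020.3 in DekCon. Every DekCon library lay above every DekTg library. The log2 fold change was -0.61 (0.656-fold, SE 0.16, 95% interval -0.96 to -0.26, unadjusted p = 0.0018, adjusted p = 0.654, limma). Leaving out DekTg 2, the lowest library, gave -0.43, and leaving out library 2 of both groups gave -0.35.

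Uqcr11, a small subunit (chr10:80402997-80406830, minus strand), had 233.2, 264.3, 248.4 and 202.6 normalized reads in DekTg, against 266.2, 453.6, 328.9 and 282.5 in DekCon. The groups did not overlap, but DekTg 2 and DekCon 1 were nearly level. The log2 fold change was -0.46 (SE 0.16, adjusted p = 0.711, limma), and -0.30 without DekCon 2, the highest library. Of the windows shown above, that of Uqcrc1 holds an NRF1-like and that of Uqcr11 an ETS-like match.

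The other 6 complex III members had values between -0.20 and -0.08 on the log2 scale. Uqcrc2, the partner of Uqcrc1 in the matrix-side core, had 387.4, 521.3, 395.0 and 332.8 normalized reads in DekTg, against 414.5, 553.1, 448.5 and 420.6 in DekCon. Its groups overlapped through DekTg 2 (log2 fold change -0.18, adjusted p = 0.826, limma). The value was -0.30 without DekTg 2, -0.08 without DekCon 2 and -0.21 without both, and its exons overlap Pdzd9 on the other strand. Uqcrfs1, the Rieske iron-sulfur protein, averaged 303 ± 34 in DekTg and 323 ± 21 in DekCon (SD, n = 4 each). Uqcrhl, a copy of Uqcrh, was not analysed here.

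**Figure D3:**
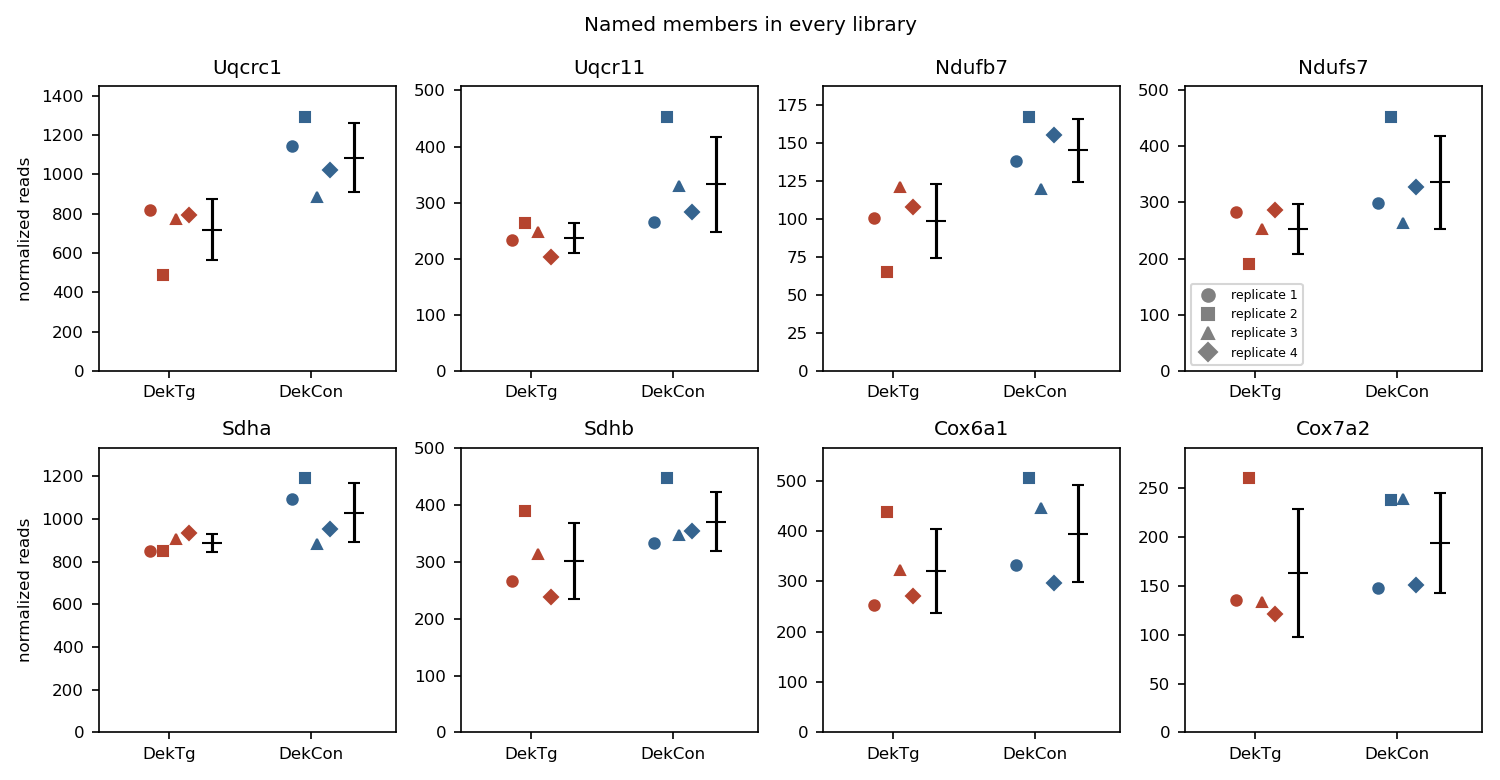
Points are normalized reads per library for 8 members, shaped by replicate number, with the mean and SD of 4 libraries as a bar beside them. The groups are apart for Uqcrc1 and Uqcr11, nearly apart for Ndufb7 and Sdha, and overlap for Ndufs7, Sdhb, Cox6a1 and Cox7a2, where replicate 2 of each group is often at an extreme.

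Complex IV reduces oxygen to water, and several of its subunits exist as a widely used isoform and an isoform of muscle, lung or testis. The 12 ubiquitous subunits all had negative log2 fold changes (median -0.18), with 0 at an unadjusted p under 0.05. Cox6a1 had 253.8, 438.4, 322.2 and 270.9 normalized reads in DekTg, against 332.1, 505.3, 444.8 and 297.1 in DekCon. The groups overlapped, with replicate 2 the highest of each (log2 fold change -0.30, 95% interval -0.69 to 0.10, adjusted p = 0.777, limma). It was -0.46 without DekTg 2, -0.17 without DekCon 2 and -0.33 without both. Cox5b averaged 302 ± 55 in DekTg and 359 ± 70 in DekCon (SD, n = 4 each; log2 fold change -0.25, adjusted p = 0.783, limma), and was -0.14 without DekCon 2.

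Cox7a2l, which helps to join complexes III and IV in supercomplexes, had the most reads of complex IV, at 708 ± 71 in DekTg and 784 ± 91 in DekCon (SD, n = 4 each). Its log2 fold change was -0.15 (adjusted p = 0.835, limma) and turned to 0.024 with quantile normalization. Cox4i1, which binds regulatory nucleotides, averaged 682 ± 99 in DekTg and 767 ± 99 in DekCon (SD, n = 4 each; log2 fold change -0.17, adjusted p = 0.813, limma), and was -0.26 without DekTg 2, -0.09 without DekCon 2 and -0.0038 with quantile normalization. Its exons overlap Emc8 on the other strand. Ndufa4, named for complex I but now placed in complex IV, was at -0.22 on the log2 scale (adjusted p = 0.823, limma), and Cox5a lay closest to 0 among these subunits at -0.02.

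Isoforms of other tissues were at or near the floor in these cells. Per kilobase of transcript, Cox4i2 was 1.16 ± 0.60% of the Cox4i1 and Cox4i2 level in DekTg and 0.73 ± 0.75% in DekCon (SD, n = 4 each). Cox6a2 was 2.99 ± 0.78% of the Cox6a level in DekTg and 2.27 ± 2.14% in DekCon, with no read in DekCon 2. Cox6b2, known from testis, was the exception, at 12.9 ± 1.9% of the Cox6b level in DekTg and 12.1 ± 1.0% in DekCon. The groups overlapped for each share. Reads of Cox6a2 can also come from Itgad, whose exons overlap it on the other strand.

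Cox7a1, the muscle isoform of Cox7a2, had 1.65, 3.60, 0.970 and 2.1 normalized reads in DekTg, against 1.27, 0, 0 and 1.54 in DekCon, a few reads in any library. Cox7b2 had 3.30, 0, 0 and 3.15 in DekTg, against 0, 0.957, 1.88 and 1.54 in DekCon, and no direction can be read from it. Cox8c was 2.48 ± 0.88% of the Cox8a and Cox8c level per kilobase in DekTg and 2.74 ± 1.03% in DekCon. Of the members that were not tested, Cox8b and Cox6c2 had 1 library with 1 read each, both in DekCon, and Ndufa4l2 was at 0 in all 8 libraries. A count of 0 does not show that the transcript was absent, since it allows up to 3 reads per library.

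Among the classes of members, complex III was the one whose summed values did not overlap between groups. It had 2475.8, 2723.1, 2411.5 and 2314.0 normalized reads in DekTg, against 2943.6, 3741.6, 2853.2 and 2831.7 in DekCon. Uqcrc1 is a large share of this sum, and without it the groups overlapped, at 1654.9, 2233.0, 1639.1 and 1521.3 in DekTg, against 1801.4, 2447.8, 1968.4 and 1811.4 in DekCon. For complex I subunits the sums were 6401.3, 7939.7, 6720.3 and 6180.9 in DekTg, against 6840.5, 9439.1, 7482.6 and 7459.4 in DekCon. DekTg 2 kept these groups from separating. The sums of complexes II and IV and of the assembly factors also overlapped. Outside the members, complex I assembly factors not taken by the rule summed to 1319 to 1476 in DekTg and 1486 to 1679 in DekCon. Cycs and Cyc1 together summed to 549 to 601 in DekTg and 636 to 967 in DekCon. Neither overlapped, so separate sums were not particular to complex III.

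**Figure D4:**
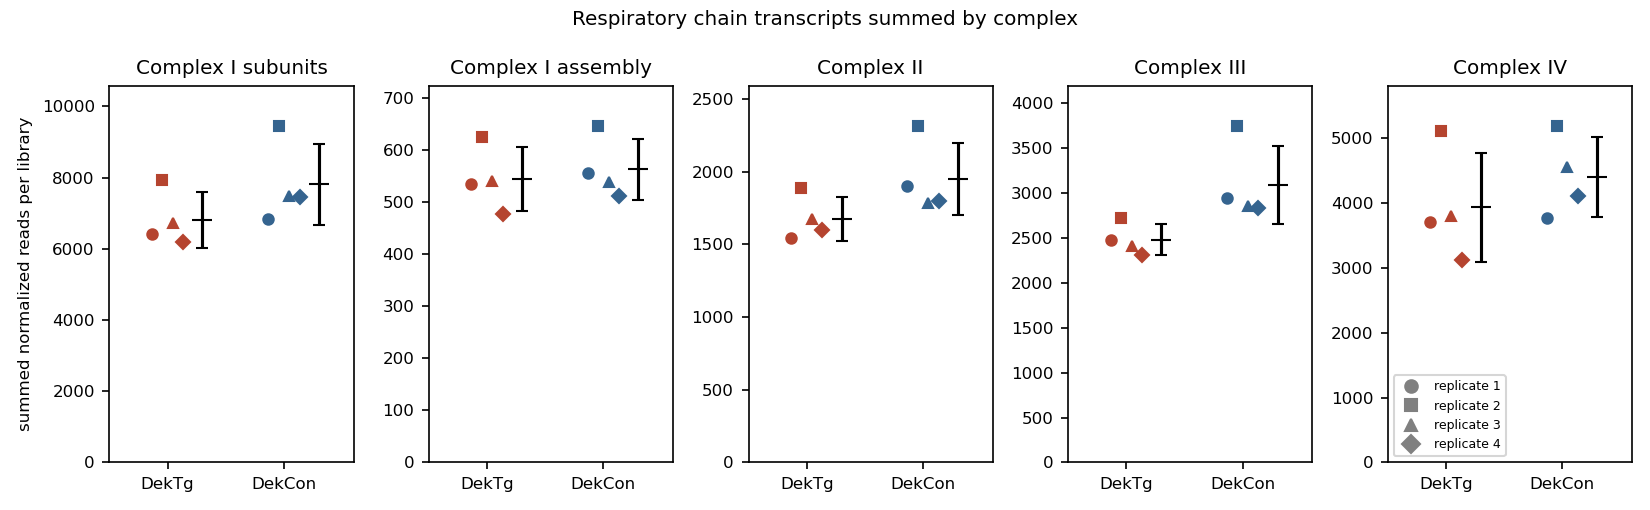
Points are normalized reads summed over the members of each complex in each library, shaped by replicate number, with the mean and SD of 4 libraries as a bar beside them. Complex III lies between 2314 and 2723 in DekTg and between 2832 and 3742 in DekCon, and the groups overlap in the other panels.

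Levels per kilobase of transcript ranked the members differently from read totals. Cox4i1 led with 915 ± 132 normalized reads per kilobase in DekTg and 1029 ± 132 in DekCon (SD, n = 4 each). Cox7a2l followed in DekTg with 658 ± 66, against 729 ± 84 in DekCon, where Uqcr11 stood next to Cox4i1 at 748 ± 191. Uqcrc1 was at 435 ± 93 in DekTg and 657 ± 105 in DekCon, Sdha at 306 ± 15 in DekTg and 355 ± 48 in DekCon, and Sdhc at 68.0 ± 15.1 in DekTg and 77.1 ± 15.5 in DekCon. The spread of Cox7a2l, Uqcr11 and Cox8a (618 ± 157 in DekTg and 693 ± 136 in DekCon) overlapped, so their order is not set.

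Members differed in transcript length and GC content, and among them the shift of DekTg 2 followed both. Among 71 members with a mean of at least 10 and an annotated transcript, DekTg 2 lay 0.58 (log2) over its group mean for the median short, GC-poor member and -0.04 from it for the median long, GC-rich one, with cuts at 781 bases and 51.5% GC. Across these 71 members, the log2 difference of DekTg minus DekCon had r = -0.381 with GC content, r = -0.159 without DekTg 2 and r = -0.236 without library 2 of both groups. Over 11307 genes with a mean of at least 50 the values were -0.235, -0.0417 and 0.0281. With log2 transcript length they were, in the same order, 0.0654, 0.276 and 0.356 for the members. Over the 11307 genes they were 0.0745, 0.0884 and 0.0643. The shift of DekTg 2 itself had r = -0.37 with length among members and -0.046 over the 11307 genes, against -0.419 and -0.448 with GC content. These genes share the same 8 libraries, so no p is given. The median log2 fold change of the long, GC-rich members, Uqcrc1 among them, was -0.31, -0.27 without DekTg 2 and -0.20 without library 2 of both groups. The part of GC content and transcript length in the result was not tested beyond these values.

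The partners of the chain were looked at through lists of textbook members. Cyc1, cytochrome c1 of complex III, had 225.0, 139.3, 195.1 and 222.6 normalized reads in DekTg, against 261.1, 423.0, 232.7 and 239.3 in DekCon, with no overlap. The fitted log2 fold change was -0.54 (adjusted p = 0.711, limma). DekTg 2 was the lowest of these libraries and DekCon 2 by far the highest, and no fitted value without them is given. The other libraries were closer, at 195.1 to 225.0 in DekTg, against 232.7 to 261.1 in DekCon. Cycs, the soluble cytochrome c, was at -0.23. Nuclear ATP synthase genes were negative for 16 of 18 tested (median -0.22), and the smallest p belonged to Atpif1, the inhibitor of the enzyme (-0.44), and Atp5g1, a subunit of its c ring (-0.40). Tricarboxylic acid cycle genes were negative for 14 of 14 (median -0.14), with Mdh2, malate dehydrogenase, at -0.34. None of these genes was called, and the same background applies.

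Assembly lists outside the symbol rule gave similar values. Complex I factors were negative for 9 of 11 tested (median -0.22), with Ecsit at -0.47 and Acad9 at -0.29. Complex III factors were negative for 6 of 6 (median -0.16), with Ttc19 at -0.41 and Uqcc3 at -0.29, and complex IV factors for 17 of 21 (median -0.17), with Cox11, a copper chaperone, at -0.57 and Coa3 at -0.34. Complex II factors were split at 2 of 4, with Sdhaf1 at -0.62 and Sdhaf3 at 0.11. Ubiquinone synthesis genes were negative for 9 of 11 (median -0.23), with Coq9 at -0.34 and Pdss1 at -0.42. Regulators of respiratory gene transcription were negative for 8 of 12 (median -0.07), with Yy1 at -0.29 and Pprc1 at -0.31. Of all these lists 0 genes were called.

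Markers of other blood cells are given beside the results for all members, and some of them differed between the groups. Of 8 erythroid markers, 3 hemoglobin genes were called higher in DekTg (limma), while 2 were negative, Epor at -1.06 and Klf1 at -0.89, neither called. DekCon 2 was far the highest library for both. Epor had 121 normalized reads there, against 25.5 to 55.6 in the other DekCon libraries, and Klf1 had 231, against 36.8 to 95.2. The list summed to between 486 and 604 normalized reads in DekTg and between 153 and 442 in DekCon. Of 8 B cell and plasma cell markers, 2 were called higher, Igkc and Jchain, and the list summed to between 4396 and 5218 in DekTg and between 333 and 1084 in DekCon. Megakaryocyte markers were negative for 8 of 8 with 0 called, and summed to between 2823 and 4490 in DekTg and between 3802 and 11552 in DekCon, with DekCon 2 the highest. Neutrophil markers were negative for 8 of 8 with 0 called, and summed to between 2166 and 16373 in DekTg and between 3921 and 10109 in DekCon. T cell and NK cell markers summed to between 552 and 741 in DekTg and between 655 and 980 in DekCon, and macrophage markers to between 798 and 2371 in DekTg and between 675 and 1108 in DekCon, with 0 called in either list. None of the markers in these lists was at 0 in any library, and the part of these cells in the result was not tested.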

How the data were processed

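RNA was sequenced from sorted hematopoietic stem cells of 4 DekTg and 4 DekCon libraries. Per the labels' protocols, RNA was extracted with a miRNeasy kit, amplified by the Geo-seq method for small cell numbers and made into libraries by tagmentation, so reads carry no molecular identifiers and counting intervals would cover counting error only. The tools named in the submitters' processing notes are HTSeq, DESeq2, Cufflinks 2.1.1 and Bowtie 0.12.9, on mm10. Which annotation and which strand setting they counted with is not given in those notes or in the labels. As deposited, the table is named for FPKM, but its signal values, normalized reads as the authors deposited them, are whole multiples of a single step per library for 99.99% of 417792 values (tolerance 0.001 reads). The 25 exceptions lie in 6 genes, Dek among them and no member. The steps matched the size factors that DESeq2 computes from the recovered reads to within 4.2e-05, so the values are treated as counts over size factors. The planned limma test was kept and count tests were added.

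Genes with a value of at least 1 in at least 4 libraries were tested (37414 of 52224) with limma 3.58.1 in R 4.3.3 on log2(value + 1), with a mean-variance trend, the 8 libraries as 2 groups, and Benjamini-Hochberg adjustment at 0.05. Fold changes on this scale understate those of low genes. edgeR 4.0.16 and DESeq2 1.42.0 on recovered reads, without the 6 genes whose values are not whole, were alternatives. The limma steps were tested on simulated data. The members, lists and tests were chosen with earlier results of these data known. Genes are named by a rule: the 3 smallest p and the highest mean in each class of members, all complex II subunits, isoform pairs, and the 2 smallest p in each list. A member and a list gene that the rule names are not reported here, and the member is left out of the figures. Other members are named for contrast. These, Cox7a2 in a plot, the sums and the shares were picked with their values in view. Motif lengths were chosen after other lengths were counted. Gene positions and transcript lengths come from GENCODE M21 (GRCm38, that is mm10), where 80 members were found by symbol. The labels name no batch, and the deviations of same-numbered libraries correlated weakly over well expressed genes, so no block was used. Libraries 2 were both high for most members, and a shared batch was not tested. For members with a mean of at least 50 the median SE was 0.17 on the log2 scale, which limits what 4 libraries a group can show.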

Additional observations from a re-analysis of the deposited data

Results flagged for a closer look

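In 68 groups of 4 libraries examined, 6 had a library far from the other 3 by Dixon's rule, and chance alone flags about 1 group in 20. Each of the 6 was library 2 of its group. Uqcrc1 was at 490 normalized reads in DekTg 2, against 772 to 821 in the other DekTg libraries. Sdhc was at 287 in DekTg 2, against 189 to 193 in the others. Cox7a2 was at 261 in DekTg 2, against 122 to 136 in the others. Ndufv1 was at 341 in DekCon 2, against 214 to 224 in the other DekCon libraries. Ndufaf2 was at 41.1 in DekCon 2, against 24.5 to 26.6 in the others. The complex III sum was at 3742 in DekCon 2, against 2832 to 2944 in the others. The direction was not the same for all, since Uqcrc1 was the gene for which library 2 was low.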

How the results depend on the processing

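The count of members called was 0 under all 23 alternatives, 3 of which were chosen after seeing the data, with the smallest member adjusted p between 0.0913 and 0.931. The member median stayed negative in all, from -0.29 to -0.09, with 60 to 70 negative members. Members with an unadjusted p under 0.05 and lower in DekTg numbered between 3 and 27, with 27 without DekTg 2, 12 without library 2 of both groups, and 6 as reported. With the replicate numbers as a block there were 11, and 0 were called. Over 11808 genes, the deviations of same-numbered libraries from their group means correlated at 0.0382, 0.0053, 0.0398 and 0.154. Such a correlation cannot show a shift in level common to both libraries. Libraries 2 were both high for most members, and a shared batch was not tested.

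The count of all genes called, 13 as reported, was 4 without the mean-variance trend, 8 without the 6 genes whose values are not whole, and 39 without library 2 of both groups. Leaving out a replicate gave between 13 and 22, with 22 without DekTg 2. The cause was not tested, apart from the 6 genes no longer being tested.

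Medians left out by replicate ranged from -0.30 to -0.11 for complex I subunits, -0.14 to 0.0702 for assembly factors, -0.32 to -0.12 for complex II, -0.30 to -0.0703 for complex III and -0.29 to -0.0368 for complex IV. Scaling to the total of all genes moved the median of all genes tested to 0.084, and the members then had 61 negative. With quantile normalization the medians were -0.14 for complex I subunits, 0.023 for assembly factors, -0.0934 for complex II, -0.0773 for complex III and -0.0574 for complex IV, and with scaling to the total -0.12, 0.0894, -0.11, -0.0941 and -0.0604 in the same order.

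Among 33 named members, 9 turned sign in 29 of 754 values, none of them called. With quantile normalization Cox7a2l was 0.024, Ndufa10 0.0031, Ndufaf7 0.061, Cox7b 0.014 and Cox7b2 -0.0062. Scaling to the total gave 0.081 for Ndufaf7, 0.035 for Cox7b and 0.044 for Cox6b2. Ndufaf7 was 0.020 with edgeR, 0.014 with DESeq2 and 0.039 with libraries 1 and 4 averaged. Cox7b2 was -0.41 with a pseudocount of 0.1 and -0.36 with libraries 1 and 4 averaged. Cox6a2, at 0.95 with all libraries, was 0.062 without DekCon 2, where it had no read. It was -0.082 without library 2 of both groups. Leaving out a replicate gave -0.28 to 0.42 for Cox7b2, -0.34 to 0.0091 for Cox6b1, -0.16 to 0.077 for Ndufaf7, -0.29 to 0.15 for Cox7b, -0.19 to 0.084 for Cox6b2 and -0.31 to 0.00024 for Cox8a.

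Libraries of 2525884 to 4101132 reads gave at most 3.60 normalized reads of Cox7a1, 3.30 of Cox7b2, 13.1 of Cox4i2 and 11.3 of Cox8c. The SE of their log2 fold changes was 0.38 to 0.65, so only large differences could have been detected for them. Cox6b2 had between 26.6 and 48.0 normalized reads.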

Other observations

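Mitochondrially encoded subunits are transcribed from the mitochondrial genome and did not share the direction of the nuclear members. Of 11 measured, 10 had a positive log2 fold change (median 0.11), and 0 were called. Their summed normalized reads overlapped, at 77452 to 82149 in DekTg and 65330 to 91068 in DekCon. DekCon 2 was the highest of all libraries, and no value without it is given. The smallest p belonged to mt-Nd5 at 0.34 and mt-Nd2 at 0.37 (adjusted p = 0.711 for both, limma), and the largest value, 0.58, to mt-Nd3, with 26.4 to 93.2 normalized reads per library. Summed over members, the nuclear reads were 18.1, 22.3, 19.6 and 17.1 per 100 mitochondrially encoded reads in DekTg, against 23.4, 23.4, 23.5 and 25.6 in DekCon, with no overlap. This ratio is taken within a library and does not depend on how libraries are scaled. The ratio was chosen after the values were seen and was not tested.

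By complex, complex III members had 15.8, 15.9, 15.9 and 14.4 reads per 100 of mt-Cytb in DekTg, against 20.9, 19.0, 19.0 and 21.3 in DekCon. Without Uqcrc1 they overlapped, at 9.47 to 13.0 in DekTg and 12.4 to 13.7 in DekCon. Complex I subunits had 28.0, 33.1, 29.3 and 26.5 reads per 100 of the mt-Nd genes in DekTg, against 39.4, 34.9, 35.4 and 45.2 in DekCon. Complex IV overlapped, at 7.66 to 12.5 per 100 of the mt-Co genes in DekTg and 10.2 to 12.3 in DekCon. Set against nuclear ATP synthase instead, members were at 175 ± 7 per 100 in DekTg and 181 ± 6 in DekCon (SD, n = 4 each), and overlapped. Mitochondrial genes took 3.47 ± 0.17% of reads in DekTg and 2.98 ± 0.31% in DekCon. The share of mitochondrial reads also moves with RNA quality and cell state, whose part was not tested.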
